A study of Mus musculus with 2 samples.

Results

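A set of 10 heat shock proteins and chaperones was followed in the resident cells of mouse bone: Hspa1a, Hspa1b, Hspa8 and Hsph1 of the HSP70 family, Dnajb1 of the HSP40 family, Hsp90aa1, the small heat shock protein Hspb1, the mitochondrial pair Hspd1 and Hspe1, and the co-chaperone Bag3. They were chosen by name, with earlier results of these data known. They are 10 of the 21905 genes in the tables and were read in cells grouped by marker genes. Femurs and tibias came from 12-week-old female mice killed 96 h after vehicle (the Veh group) or the anthracycline doxorubicin, a DNA-damaging drug (the Doxo group, 10 mg/kg). Both groups went through the same steps. The bones were cut, digested with collagenase at body temperature and depleted of CD45+, CD71+ and Ter119+ cells (the labels add CD31+ cells), and the rest was profiled in droplets with 3′ single-cell libraries. Each condition gave 1 library. The number of mice behind it and whether they were pooled are not given in the sources used here. With 1 library each, no test between the conditions was possible, and every interval below is a 95% interval for counting error only.

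Chaperones help proteins fold, keep unfolded proteins from clumping and hand damaged ones on for degradation. HSP70 proteins bind unfolded stretches with the aid of HSP40 partners such as Dnajb1 and are reset by exchange factors such as Hsph1 and Bag3, while HSP90 completes the folding of kinases and receptors. Heat shock factor 1 (Hsf1) switches on the inducible genes, among them Hspa1a, Hspa1b and Dnajb1, within minutes of heat or other protein damage by binding heat shock elements, which are GAA and TTC units in alternation.

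The promoters of Hspa1a and Hspa1b are shown because these 2 genes are near-identical copies. Both stand on the minus strand of chromosome 17 (build GRCm38.p6, RefSeq), and the bases printed are the 250 just upstream of each start, with GAA and TTC units 2 bases apart in capitals.
Hspa1a, chr17:34972157-34972406, minus strand: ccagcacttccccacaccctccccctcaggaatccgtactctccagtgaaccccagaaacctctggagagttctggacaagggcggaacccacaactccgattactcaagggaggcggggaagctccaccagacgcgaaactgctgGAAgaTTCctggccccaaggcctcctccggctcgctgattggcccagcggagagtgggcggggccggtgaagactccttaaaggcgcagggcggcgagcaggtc
Hspa1b, chr17:34959239-34959488, minus strand: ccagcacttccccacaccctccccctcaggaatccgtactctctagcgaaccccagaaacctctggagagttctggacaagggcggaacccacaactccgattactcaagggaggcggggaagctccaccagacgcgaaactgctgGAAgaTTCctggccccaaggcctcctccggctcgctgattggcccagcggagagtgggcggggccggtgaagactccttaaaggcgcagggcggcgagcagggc
The windows matched at 247 of 250 positions and differed at 3, and each held the same GAANNTTC match 104 to 97 bases before the start. The heat shock element of the mitochondrial pair and the matches of Hspb1 are shown as 30-base stretches, since Hspe1 and Hspd1 lie head to head on chromosome 1 and share theirs.
Hspe1, chr1:55088053-55088082, plus strand: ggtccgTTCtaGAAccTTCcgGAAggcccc
Hspd1, chr1:55088053-55088082, minus strand: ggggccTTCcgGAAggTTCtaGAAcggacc
Hspb1, chr5:135887801-135887830, plus strand: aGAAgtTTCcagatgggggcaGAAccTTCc
The Hspe1 stretch lies 95 to 66 bases before the Hspe1 start, and the Hspd1 line is the same DNA read on the other strand, ahead of an inner start of Hspd1. Its 4 units make the 3-unit motif GAANNTTCNNGAA, or TTCNNGAANNTTC on the other strand, which 139 of 27025 genes with a promoter in the RefSeq table (0.514%) held in the 250 upstream bases. The 2-unit motifs overlap it and were common, with GAANNTTC in 7.73% and TTCNNGAA in 8.11% of genes (both read the same on either strand). Of the 8 members in the table, 6 held a 2-unit match. The Hsph1 match was a TTCNNGAA 33 to 26 bases before the outer of its 2 starts, and the windows of Dnajb1 and Bag3 held none of these letters. Hsp90aa1 and Hspa8 were not in the table.

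The members are spread over 7 chromosomes in the GENCODE M21 annotation of GRCm38: Hspa1a at chr17:34969190-34972156, Hspa1b at chr17:34956436-34959238, Hsp90aa1 at chr12:110690605-110702728, Hsph1 at chr5:149614287-149636376, Dnajb1 at chr8:83608193-83612653, Hspb1 at chr5:135887919-135889563, Hspa8 at chr9:40800984-40810087, Hspe1 at chr1:55088132-55091307, Hspd1 at chr1:55077835-55088243 and Bag3 at chr7:128523616-128546981. A 3′ library reads the ends of transcripts, so the last 600 bases of each were searched for 90-base stretches that other genes also carry. Hspa1a and Hspa1b had none among 511 stretches each, and their ends can be told apart. Hspa8 shared 83.8% of its stretches with 8 other annotated genes, all named as predicted genes, and Hspb1 59.9% with Hsp25-ps1. Hspe1 shared 29.0% and Hspd1 9.0% with such copies of their own. How the authors counted reads that match a gene and its copy is not given in the sources used here, and the levels of these 4 genes are uncertain to that extent.

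The libraries held 2488 cells each, with 24859695 UMIs (unique molecular identifiers, the RNA molecules counted) in Veh and 20792012 in Doxo and medians of 8693 and 7347.5 UMIs per cell. Clustering without the chaperone genes gave 6 classes named from markers. These were CAR-like cells (Cxcl12-abundant reticular cells, the marrow stroma, 364 in Veh and 419 in Doxo), bone and cartilage fibroblast-like cells (1090 and 1344), arteriolar and endosteal fibroblast-like cells (427 and 263), osteoblast-like cells (204 and 126), chondrocyte-like cells (256 and 212) and endothelial-like cells (103 and 69). All 8 CAR, 8 chondrocyte and 8 endothelial markers stood out in their class, against 6 of 10, 7 of 8 and 8 of 10 in the fibroblast-like and osteoblast-like classes, and endothelial-like cells were present although the labels list a CD31 depletion. The other 44 and 55 cells, led by Clic5 and Rab37, stayed unnamed. The 6 erythroid markers summed to 178 to 931 CPM (counts per 1000000 UMIs of a class) over the classes in Veh, and to 0 to 11.4 CPM in Doxo, where 1 to 6 of them were at 0. The 7 immune markers measured summed to 1249 and 130 CPM in CAR-like cells, with 0 and 1 of them at 0. In bone and cartilage fibroblast-like cells they summed to 1028 and 87.9 CPM. In each other class the log2 of Doxo over Veh for this sum lay between -0.11 and 0.18. The part of erythroid and immune RNA in the results below was not tested. The libraries shared 4 cell barcodes, and leaving these cells out changed no count of members given below. Levels are given as CPM, and differences as the log2 of Doxo over Veh.

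The summed level of the members was lower in Doxo in CAR-like cells and higher in chondrocyte-like cells. Summed over the 10 genes, their level in CAR-like cells was 6812 CPM in Veh and 3001 CPM in Doxo, a log2 difference of -1.18 (-1.22 to -1.15). The difference was -0.52 without a subcluster of CAR-like cells high in the sum of Il6, Ccl2 and Cxcl1, called Il6-high below. In the same cells the 10 osteoblast markers summed to 8306 and 3400 CPM (-1.29), the 8 CAR markers to 36468 and 42045 CPM (0.21), and the median share of mitochondrial UMIs was 2.81% and 4.09%. In chondrocyte-like cells it was 4820 CPM in Veh and 6620 CPM in Doxo, a difference of 0.46 (0.43 to 0.48), and Dnajb1 alone went from 582 to 1651 CPM. The median member there stood at 0.12 beside 0.09 for all genes, with 6 members above 0 and 4 below. Its 8 chondrocyte markers summed to 41216 and 28424 CPM (-0.54). The part of these shifts in the members' values was not tested. Osteoblast-like cells followed the CAR-like cells in direction, from 3226 to 1933 CPM (-0.74, -0.85 to -0.63), and the difference was -0.35 when only osteoblast-like cells with 1000 or more genes and no more than 5% mitochondrial UMIs were kept. The median mitochondrial share of the osteoblast-like cells was 2.19% in Veh and 4.39% in Doxo. The fibroblast-like classes stood close to 0, at -0.24 (-0.26 to -0.22) and -0.23 (-0.26 to -0.19), and the endothelial-like cells lay between, at -0.41 (-0.49 to -0.34).

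Counts of members past 1.5-fold gave the same order, read against all genes with at least 20 UMIs in a class, a filter all 10 members passed in each class. The members were chosen with earlier results of these data known, so these comparisons with all genes are descriptive only. In CAR-like cells 9 of 10 were lower and 0 higher, where 10.0% of all genes were lower and 12.7% higher. Without the Il6-high subcluster 3 members were lower, and in the largest CAR-like subcluster alone 5. In osteoblast-like cells 7 were lower and 0 higher, against 17.5% and 14.6% of all genes. The intervals of 6 members lay below 0, those of Hsph1 and Hspb1 held it, and 4 members were lower with the stricter cell filter or among members with at least 100 UMIs. Endothelial-like cells had 3 lower and 0 higher, against 10.5% and 14.5%. Bone and cartilage fibroblast-like cells had 2 lower and 0 higher (9.47% and 4.22%), and arteriolar and endosteal fibroblast-like cells 1 lower and 0 higher (9.78% and 6.88%), shares near the background. Chondrocyte-like cells had members on both sides, 3 higher and 2 lower, against 16.7% and 9.98% of all genes.

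**Figure D1:**
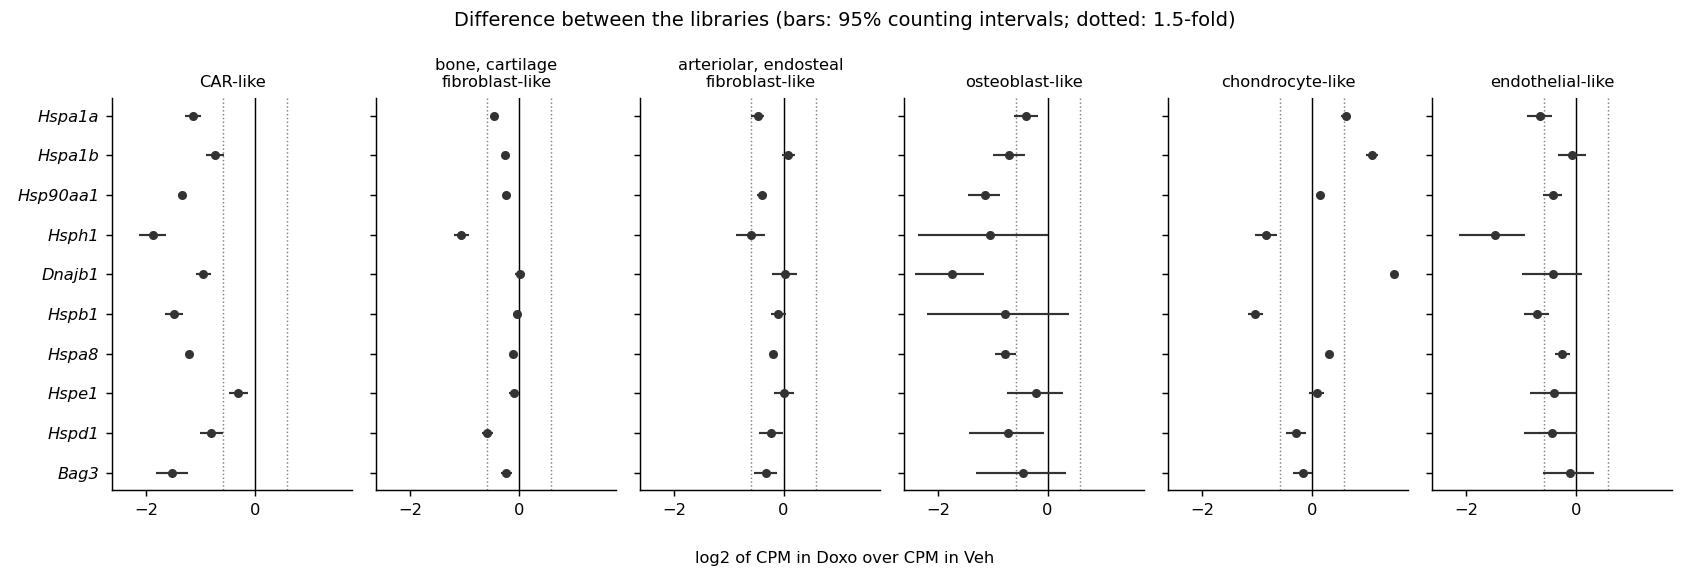
Log2 of CPM in Doxo over CPM in Veh (horizontal axis) for the 10 genes (rows) in the 6 cell classes (panels), with 95% counting intervals as bars and 1.5-fold as dotted lines. In CAR-like cells all 10 points lie below 0, and in chondrocyte-like cells Hspa1a, Hspa1b and Dnajb1 lie beyond 1.5-fold above it.

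Hspa1a and Hspa1b, the heat-inducible HSP70 genes, differed from each other in most classes. In CAR-like cells Hspa1a was at 445 CPM in Veh and 202 CPM in Doxo (-1.14, -1.28 to -1.0), and Hspa1b at 277 and 167 CPM (-0.73, -0.90 to -0.57). Without the Il6-high subcluster they stood at -0.26 and 0.32, and in the largest CAR-like subcluster alone at -1.15 and 0.01. In chondrocyte-like cells both were higher in Doxo. Hspa1a went from 531 to 815 CPM (0.62, 0.54 to 0.70) and Hspa1b from 228 to 488 CPM (1.10, 0.99 to 1.21). In the arteriolar and endosteal fibroblast-like cells they stood on different sides of 0, Hspa1a at -0.47 (-0.59 to -0.36) and Hspa1b at 0.09 (-0.03 to 0.21), with 559 against 402 CPM for the former and 396 against 422 CPM for the latter. The endothelial-like cells showed the same split in size, with Hspa1a at 1002 and 634 CPM (-0.66, -0.88 to -0.44) and Hspa1b at 562 and 537 CPM (-0.06, -0.32 to 0.19). The intervals of their log2 differences did not overlap in 5 of the 6 classes, with Hspa1b the higher of the pair in each. The exception was the osteoblast-like class, with Hspa1a at -0.39 (-0.61 to -0.18) and Hspa1b at -0.70 (-1.0 to -0.42). Hspa1a turned to 0.16 there with the stricter cell filter, and Hspa1b was at -0.24 without the deepest 5% of cells. In the Il6-high CAR-like cells alone the intervals of the pair did overlap (-0.61 to -0.25 for Hspa1a and -0.49 to -0.04 for Hspa1b). How often the intervals of other gene pairs failed to overlap was not counted.

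Hspa8, the HSP70 that cells make without stress, was highest in the CAR-like cells of Veh, at 2894 CPM (2827 to 2962), above the 2224 CPM of endothelial-like cells. Among these CAR-like cells it was at 5531 CPM in the Il6-high subcluster and at 1237 CPM in the largest one. In Doxo the CAR-like level was 1248 CPM (-1.21, -1.27 to -1.16), and its interval (1210 to 1287) overlapped those of both fibroblast-like classes. The other classes differed less than the CAR-like class, from -0.77 in osteoblast-like cells (1049 to 615 CPM) to 0.31 in chondrocyte-like cells (1425 to 1768 CPM). In the largest CAR-like subcluster alone Hspa8 was at -0.54 (-0.63 to -0.44). Hsph1, an HSP110 protein that serves as exchange factor for HSP70, was the member that was lower past 1.5-fold in all 6 classes. Its levels in Veh and Doxo were 207 and 56.2 CPM in CAR-like cells (-1.88, -2.13 to -1.64), 126 and 60.4 in bone and cartilage fibroblast-like cells (-1.06), 113 and 74.4 in arteriolar and endosteal fibroblast-like cells (-0.60, no longer past 1.5-fold with the cell filter named above), 165 and 92.7 in chondrocyte-like cells (-0.83) and 227 and 80.0 in endothelial-like cells (-1.48). Osteoblast-like cells held only 30 and 9 Hsph1 UMIs, and the interval there reached 0 (-1.05, -2.36 to 0.01).

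Dnajb1, the HSP40 partner of inducible HSP70, had the widest range of log2 differences over the classes among the members. In chondrocyte-like cells it was at 582 CPM (561 to 604) in Veh and 1651 CPM (1607 to 1697) in Doxo, a difference of 1.5 (1.44 to 1.57) from 2868 and 5272 UMIs. Osteoblast-like cells went the other way, from 182 to 53.2 CPM (-1.75, -2.42 to -1.17), on 143 and 27 UMIs. CAR-like cells had 430 and 222 CPM (-0.96, -1.09 to -0.82), and the difference was -0.07 without the Il6-high subcluster. Dnajb1 was at -0.38 (-0.69 to -0.06) in the largest CAR-like subcluster alone and at -0.10 (-0.27 to 0.07) in the Il6-high one. Both fibroblast-like classes were level, at 171 and 172 CPM and at 113 and 114 CPM. The Doxo levels of Dnajb1 spanned 31.0-fold over the classes, from osteoblast-like to chondrocyte-like cells, and the Veh levels 5.15-fold. The lower end in Doxo, 53.2 CPM (35.1 to 77.4), rested on the 27 UMIs of osteoblast-like cells.

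Hsp90aa1, the stress-responsive cytosolic HSP90, resembled Hspa8 in its order. It was at 1657 and 654 CPM in CAR-like cells (-1.34, -1.42 to -1.27), at 540 and 242 CPM in osteoblast-like cells (-1.15, -1.46 to -0.86) and at 1016 and 1124 CPM in chondrocyte-like cells (0.15, 0.08 to 0.21). Its remaining classes lay between -0.42 and -0.25. Among the CAR-like cells of Veh, Hsp90aa1 was at 3131 CPM in the Il6-high subcluster and at 744 CPM in the largest one. Hspb1, a small heat shock protein that holds unfolded proteins and binds actin, was lower past 1.5-fold in 4 classes and level in the fibroblast-like ones (439 and 425 CPM, 335 and 314 CPM). The CAR-like cells had 383 and 136 CPM (-1.49, -1.66 to -1.33), the chondrocyte-like cells 323 and 159 CPM (-1.03, -1.17 to -0.88) and the endothelial-like cells 952 and 583 CPM (-0.70, -0.94 to -0.48). Osteoblast-like cells lacked most of it, with 22 and 8 UMIs.

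The mitochondrial chaperonin Hspd1 and its lid Hspe1 share a promoter region and differed in their values. Hspd1 was below 0 in all 6 classes, from 182 to 104 CPM in CAR-like cells (-0.81, -1.02 to -0.60) and from 165 to 110 CPM in bone and cartilage fibroblast-like cells (-0.59, -0.69 to -0.48). Hspe1 passed 1.5-fold in no class, with 210 and 168 CPM in CAR-like cells (-0.32, -0.49 to -0.14) and 190 and 177 CPM in bone and cartilage fibroblast-like cells (-0.10, -0.19 to -0.01). In these and in the chondrocyte-like cells (-0.28 for Hspd1 and 0.09 for Hspe1), 3 classes in all, the intervals of the pair did not overlap. Here too, no share over other gene pairs was counted. Bag3, which links HSP70 to the clearance of damaged proteins, was below 0 in all 6 classes but passed 1.5-fold in CAR-like cells alone, at 128 and 44.5 CPM (-1.52, -1.82 to -1.24). Elsewhere it lay between -0.45 and -0.11.

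**Figure D2:**
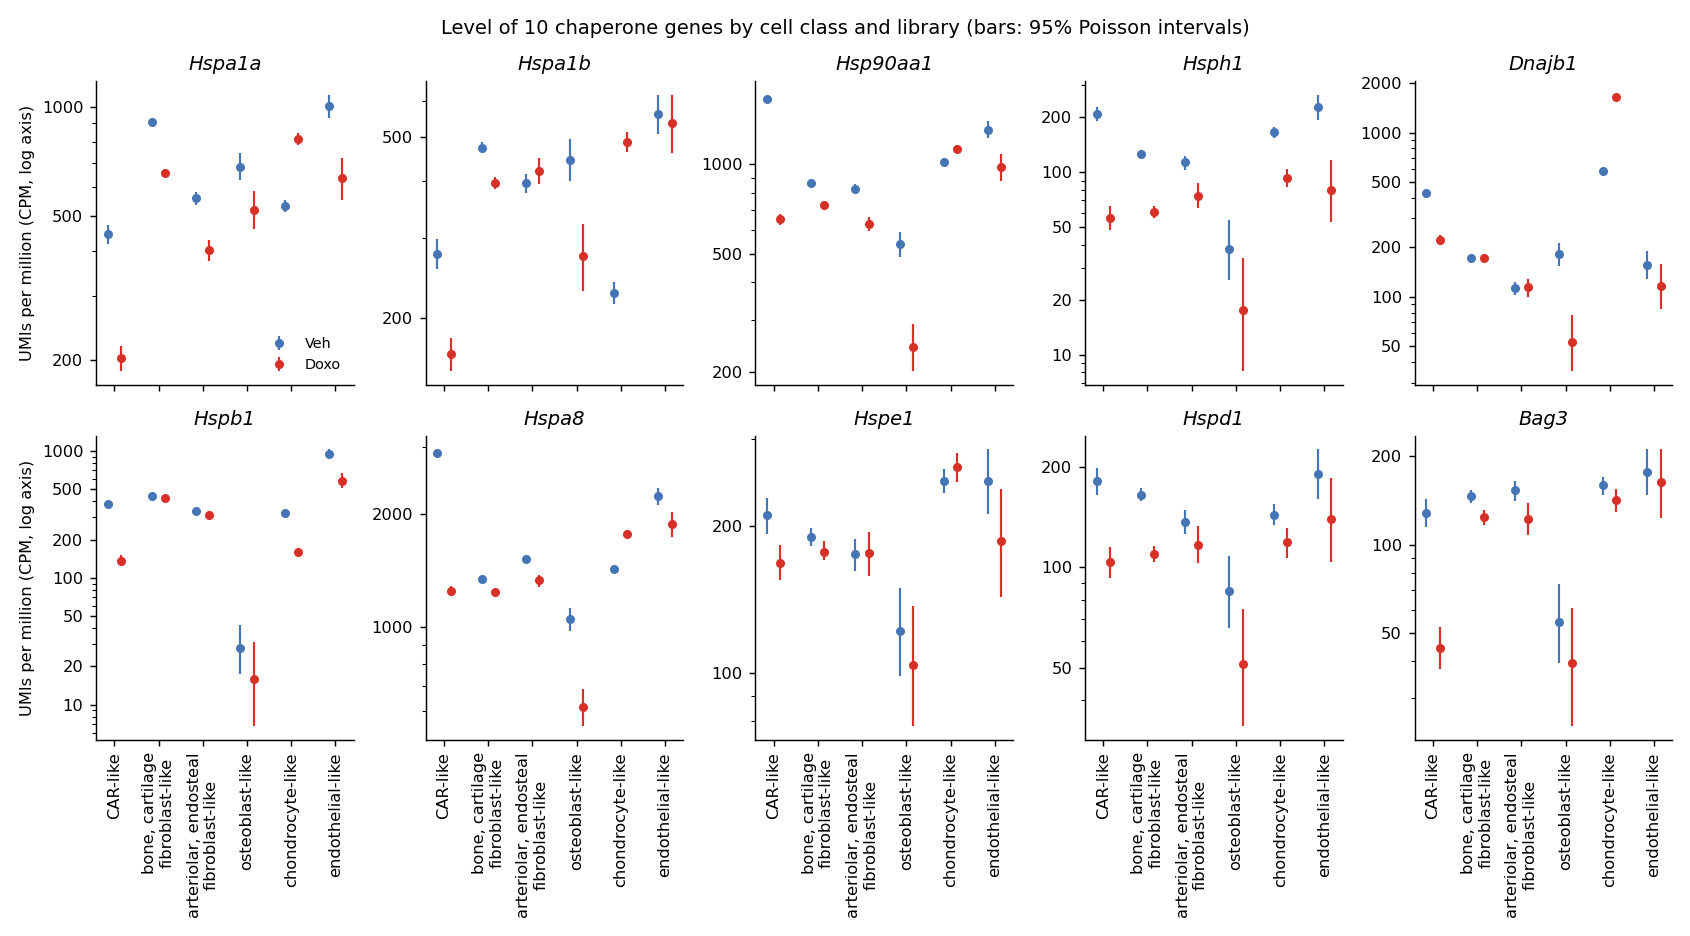
CPM on a log axis (vertical) of each gene (panels) in the 6 cell classes (horizontal axis), with Veh in blue, Doxo in red and 95% Poisson intervals as bars. Hspa8 and Hsp90aa1 are highest in the CAR-like cells of Veh, and Dnajb1 in the chondrocyte-like cells of Doxo, at 1651 CPM.

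Across the classes of the Veh library, 7 of the members were highest in endothelial-like cells, among them Hspa1a (1002 CPM), Hspa1b (562 CPM) and Hspb1 (952 CPM). Hspa8 and Hsp90aa1 were highest in CAR-like cells and Dnajb1 in chondrocyte-like cells. In the largest CAR-like subcluster alone, Hspa8 (1237 CPM) and Hsp90aa1 (744 CPM) were below their levels in endothelial-like cells (2224 and 1304 CPM). Osteoblast-like cells were lowest for 7 members, with a 34.1-fold range for Hspb1 (952 to 27.9 CPM) and a 2.02-fold range for Hspe1 (247 to 122 CPM). Neighbouring classes often could not be ordered. For Bag3, 4 of the 5 pairs of neighbours in Veh had overlapping intervals, for Hspa8 none. In Doxo, chondrocyte-like cells led for Hspa1a, Hsp90aa1, Hsph1, Dnajb1 and Hspe1, and CAR-like cells were lowest for Hspa1a (202 CPM) and Hspa1b (167 CPM). The pattern over the 12 groups of class and library set the genes apart as well. Among 6229 genes with a mean of at least 20 CPM, those most like Hspd1 were Hsph1 (Pearson r = 0.968), Stip1 (0.951) and Slc30a9 (0.948), and those most like Hspa1a were Hspa2 (0.862), Hspa1b (0.819) and Atp1b3 (0.802). The 12 groups come from 2 libraries, and these values describe them only.

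CAR-like cells were not uniform, and 1 subcluster had several times the chaperone level of the large one. Clustered alone, they fell into a large subcluster (247 Veh and 341 Doxo cells), the Il6-high subcluster (107 and 62 cells), and 10 and 16 other cells. The name Il6-high stands for a high summed level of Il6, Ccl2 and Cxcl1, which encode inflammatory cytokines. This sum was 6571 CPM there, 79.5 CPM in the large subcluster and 1455 CPM in the other cells. The members summed to 13117 CPM in the Il6-high cells of Veh and to 2954 CPM in the large subcluster, 4.44-fold, and to 8102 and 1928 CPM in Doxo, 4.20-fold. Dnajb1 stood out most (967 against 106 CPM in Veh, 9.10-fold, and 903 against 81.5 CPM in Doxo, 11.1-fold), followed in Veh by Hspa1a (6.45-fold), while Hspe1 and Hspd1 differed by 1.75-fold and 1.59-fold in Veh and by 1.03-fold and 1.01-fold in Doxo. The Il6-high cells held 72.0% of the member UMIs of CAR-like cells in Veh and 39.8% in Doxo, where the large subcluster held 48.9%. These shares also depend on the size of the subcluster, which had 107 of 364 CAR-like cells in Veh and 62 of 419 in Doxo. A list of 22 early-response genes such as Fos, Jun and Egr1 was higher in the Il6-high cells as well, at 38175 against 8418 CPM in Veh (4.53-fold) and 50442 against 7753 CPM in Doxo (6.51-fold). Unlike the chaperones, the early-response genes were not left out of the clustering. Their difference between the subclusters may therefore be built in and is descriptive only.

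Within the large and the Il6-high subcluster the summed members were still lower in Doxo, but by less than in the class. The summed difference was -0.62 (-0.68 to -0.56) in the large subcluster, -0.69 (-0.75 to -0.64) in the Il6-high cells and -0.05 (-0.19 to 0.10) in the few others, where the class as a whole had -1.18. Without the Il6-high cells the class had -0.52, with 3 of 10 members lower past 1.5-fold in place of 9. This remainder includes the few others, and the large subcluster alone had 5 members lower. Hspa1b and Hspe1 were level in the large subcluster. Hspa1b was at 93.9 and 94.8 CPM in the large subcluster (0.01, -0.30 to 0.33), at 594 and 494 CPM in the Il6-high cells (-0.26, -0.49 to -0.04), and at 0.32 in the class without them. Hspe1 was at 163 and 169 CPM (0.06, -0.18 to 0.30) and at 284 and 173 CPM (-0.71, -1.09 to -0.35). Hsph1 was lower in both, from 101 to 27.4 CPM (-1.87) and from 392 to 169 CPM (-1.21), as was Hspb1, from 153 to 77.9 CPM (-0.97) and from 784 to 369 CPM (-1.08). Dnajb1 differed little among the Il6-high cells, with 967 and 903 CPM (-0.10).

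**Figure D3:**
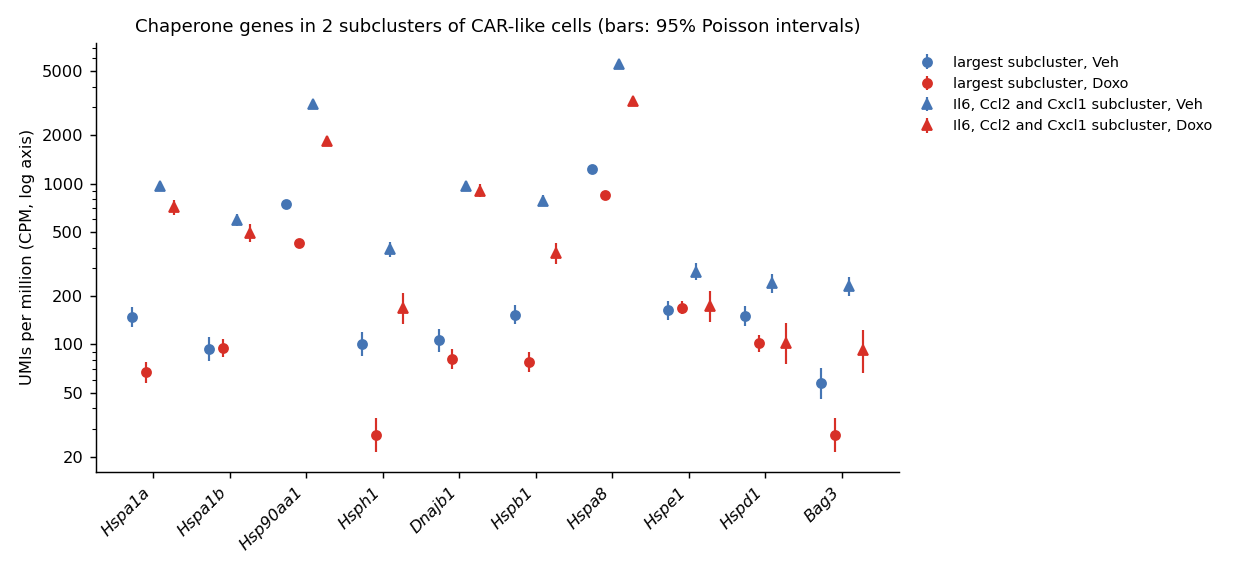
CPM on a log axis of each gene in the large (circles) and the Il6-high (triangles) subcluster of CAR-like cells, with Veh in blue, Doxo in red and 95% Poisson intervals. The triangles lie above the circles of the same library for 8 of the genes in both libraries, and for Hspe1 and Hspd1 they come together in Doxo.

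The RNA was uneven from cell to cell in every class. In CAR-like cells of Veh the members made up a median of 0.261% of a cell's UMIs, with 0.0557% at the 5th percentile and 1.90% at the 95th, and in Doxo 0.161%, 0.0445% and 0.930%. The 37 Veh cells with the highest shares (of 364) held 44.3% of the member UMIs and 11.9% of all UMIs. In chondrocyte-like cells the whole middle of the distribution stood higher in Doxo, with a median of 0.522% against 0.334%, and 0.500% against 0.350% once each cell was thinned to 2000 UMIs. The genes differed here too. For Dnajb1 the median chondrocyte-like cell had 258 CPM in Veh and 1171 CPM in Doxo, whereas for Hspb1 the median was 0 in both and 26 of 256 Veh cells held 92.7% of its UMIs. Among CAR-like cells of Veh, 33.5% (28.7 to 38.6) had a UMI of Hspa1a and 95.1% (92.3 to 97.0) one of Hspa8, at a median of 6228.5 UMIs per cell. Hspb1 was found in 4.41% of osteoblast-like cells of Veh at a median of 3063 UMIs and in 33.5% of CAR-like cells, and 17.9% of the latter after thinning.

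**Figure D4:**
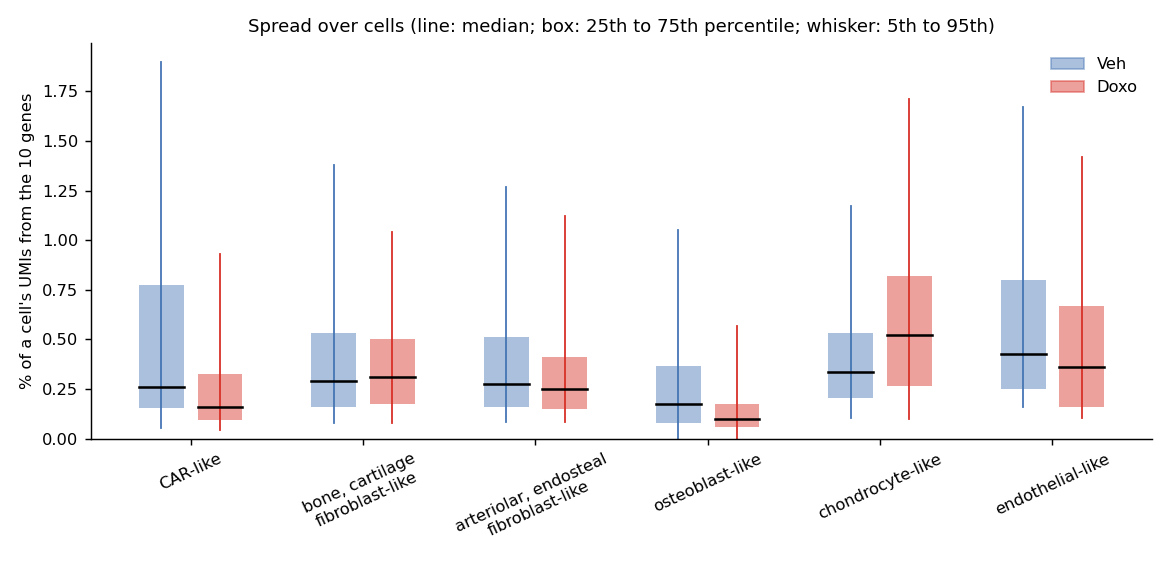
Share of a cell's UMIs that came from the 10 genes (vertical axis, %), by class and library, as the median (black line), 25th to 75th percentile (box) and 5th to 95th percentile (whisker) over cells. The chondrocyte-like median is higher in Doxo (0.522%) than in Veh (0.334%), and the CAR-like box is lower.

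The wider chaperone network differed less between the libraries than the members did. Both lists were chosen with earlier results of these data known, so this comparison is descriptive only. Of 66 other chaperone genes in 9 roles, 63 passed the filter in CAR-like cells. Of these, 11 were lower and 3 higher past 1.5-fold, against 10.0% and 12.7% of all genes. Their median difference was -0.20, beside 0.05 for all genes and -1.18 for the members. In chondrocyte-like cells 6 of 64 were lower and 0 higher, against 9.98% and 16.7% of all genes. The sum of these other genes there was 9940 and 8726 CPM (-0.19, -0.21 to -0.17), below 0 where that of the members was above it. The lowest in CAR-like cells were the HSP40 genes Dnaja4 (29.4 and 11.7 CPM, -1.32) and Dnaja1 (1011 and 475 CPM, -1.09), and the highest were Bag6, a chaperone of the ubiquitin pathway (0.67, 0.30 to 1.07), and Grpel1, an exchange factor of mitochondrial HSP70 (0.55, 0.24 to 0.87). The cytosolic chaperonin CCT, which folds actin and tubulin, had none of its 8 subunit genes past 1.5-fold in any class, with a median of -0.22 in CAR-like cells (0.05 for all genes), -0.19 in bone and cartilage fibroblast-like cells (-0.09) and -0.42 in chondrocyte-like cells (0.09). Hsf1, Hsf2 and Hsbp1, which encodes a binding protein of heat shock factor 1, passed 1.5-fold in none of the 6 classes but the osteoblast-like, where Hsf1 was lower on 17 and 7 UMIs (-0.59, -2.16 to 0.70). Hsf1 was at 35.8 and 25.5 CPM in CAR-like cells (-0.49, -0.94 to -0.04) and at 14.6 and 13.2 CPM in chondrocyte-like cells (-0.14, -0.74 to 0.42).

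In chondrocyte-like cells the HSP40 and the small heat shock protein lists moved apart. The summed HSP40 genes were at 1837 CPM in Veh and 3108 CPM in Doxo (0.76, 0.72 to 0.80), of which Dnajb1 made up 582 and 1651 CPM. Dnajb4 was the highest of the others, at 31.3 and 46.4 CPM (0.57, 0.23 to 0.90). The small heat shock proteins summed to 679 and 221 CPM (-1.62, -1.74 to -1.50), with 4 of 5 past 1.5-fold lower, against 9.98% of all genes. One of these, Hspb2, rested on 21 and 8 UMIs (-0.71, -2.15 to 0.47). Cryab, the alpha B crystallin of lens, muscle and joint tissue, went from 314 to 33.8 CPM (-3.21, -3.51 to -2.93) there, and was also the lowest of the other chaperone genes in both fibroblast-like classes (337 and 197 CPM, -0.77, and 338 and 185 CPM, -0.87). Osteoblast marker RNA within the chondrocyte-like cells was 13700 CPM in Veh and 5481 CPM in Doxo over 10 genes with none at 0, and that of arteriolar and endosteal fibroblasts 127 and 51.4 CPM. Their part in the lower Cryab and Hspb1 was not tested. In CAR-like cells the small heat shock proteins summed to -1.30 while their median gene stood at 0.26, since Hspb1 made up most of the sum.

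The remaining classes named few other chaperones. In osteoblast-like cells the extremes were Hspa5, the HSP70 of the endoplasmic reticulum (457 and 282 CPM, -0.70, -0.99 to -0.41), and Dnajb6 (0.60, -0.02 to 1.22), and in endothelial-like cells Chordc1, an HSP90 partner (74.2 and 34.3 CPM, -1.07, -2.16 to -0.19), and Bag6 (0.91, 0.12 to 1.68). Hspa5 was also lower in CAR-like cells (1919 and 1000 CPM, -0.94), chondrocyte-like cells (-0.61) and both fibroblast-like classes (-0.43 and -0.37). The highest in the fibroblast-like classes were Hsf2 (0.39, 0.08 to 0.71) and Sdf2l1 (0.42, -0.07 to 0.89). The 15 chaperones of the endoplasmic reticulum had medians between -0.20 and 0.04 over the classes.

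**Figure D5:**
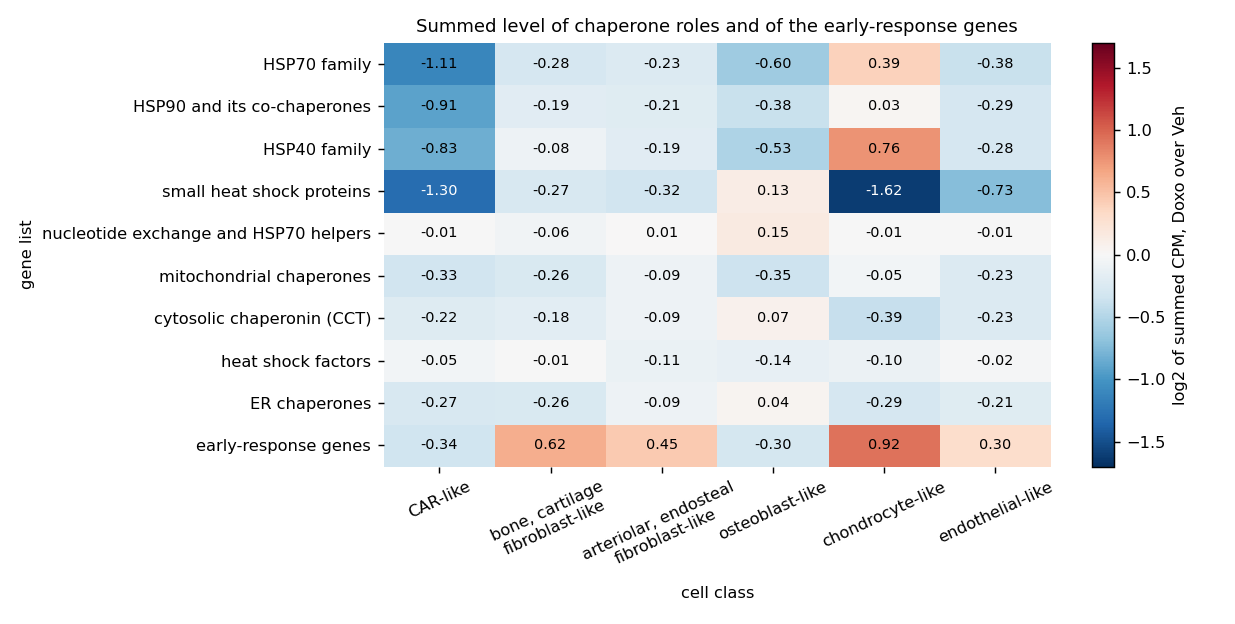
Log2 of the summed CPM in Doxo over that in Veh (colour and printed value) for 9 chaperone roles, members included, and the 22 early-response genes (rows) in the 6 cell classes (columns). The HSP70, HSP90 and HSP40 rows are lowest in CAR-like cells, and the small heat shock proteins lowest in chondrocyte-like cells. The heat shock factor row includes Hsbp1.

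Chaperone genes also answer to the digestion of tissue, so the 22 early-response genes were read beside them. Their sum was lower in Doxo in CAR-like (-0.34) and osteoblast-like cells (-0.30) and higher in bone and cartilage fibroblast-like (0.62), arteriolar and endosteal fibroblast-like (0.45), endothelial-like (0.30) and chondrocyte-like cells (0.92). CAR-like and osteoblast-like cells, with the lowest log2 differences of the summed members, were the classes with early-response genes lower in Doxo. The chondrocyte-like class, where the summed members were higher in Doxo, had the highest difference in early-response genes. In the fibroblast-like and endothelial-like classes the summed members were lower in Doxo and the early-response genes higher. Among the Il6-high CAR-like cells the members were at -0.69 and the early-response genes at 0.40. In the large CAR-like subcluster these values were -0.62 and -0.12, and in the few other CAR-like cells -0.05 and 1.23. The class value of -0.34 for the early-response genes lay below that of each subcluster. The Il6-high cells were 107 of 364 CAR-like cells in Veh and 62 of 419 in Doxo. Over cells of 1 class and library, thinned to 2000 UMIs, the share of members and that of early-response genes had Spearman correlations of 0.43 (250 chondrocyte-like cells of Veh) to 0.77 (347 CAR-like cells of Veh), which share the library and its digestion. The part of handling in these differences was not tested.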

How the data were processed

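The authors made 3′ libraries with a Chromium v3 kit, aligned them to GRCm38 with Cell Ranger and kept filtered cells, and the submitters' processing notes also name Partek. Each deposited table gives, per gene and cell, a log2 value that had gone through 2 rounds of scaling to 1000000 and taking logs, as its numbers showed. These rounds were inverted to UMIs, which were whole (within 0.05) for 99.9% of values up to 50 UMIs. Of all symbols, 21 were not whole in part, none of them a member.

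Cells were clustered in Seurat 5.3.0 (R 4.3.3) on 35 components of 2000 variable genes, without members and other chaperones, at a resolution of 0.1. Endothelial-like cells were set aside and the rest clustered again. Names went to clusters by the class with the most markers that stood 1 log2 unit above other cells and were found in 10% or more of the cluster, with 3 as the minimum. Doublets were kept. Cells called by Scrublet (scanpy 1.11.5, expected 5%) were left out in an alternative.

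UMIs were summed by class and library. CPM have exact Poisson intervals, shares exact binomial and ratios exact conditional binomial intervals (95%), which cover counting error only. The log2 ratio has 0.5 UMI added to each sum, and genes with fewer than 20 UMIs in a class over both libraries were left out of counts. Cells are not replicates, and no p-value was computed. Correlations over cells were taken as Spearman's on thinned cells, in place of the Pearson's planned. Named chaperones were the 2 highest and 2 lowest log2 ratios among other listed genes with 50 or more UMIs in the CAR-like class, and the highest and lowest in each other class. Likeness was Pearson's r of log2(CPM + 1), and that to Hspa8 is not reported here. Calculations were tested on simulated data, with Python 3.11.15, numpy 2.4.6, scipy 1.17.1, pandas 2.3.3 and matplotlib 3.10.9. Members and lists were chosen with earlier results of these data known.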

Additional observations from a re-analysis of the deposited data

Results flagged for a closer look

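Differences between the libraries that had opposite signs past 1.5-fold in 2 classes drew attention for 3 members. Dnajb1 was higher in Doxo in chondrocyte-like cells (1.5) and lower in osteoblast-like cells (-1.75), a gap of 3.25 on the log2 scale. Hspa1b stood at 1.10 in chondrocyte-like and -0.73 in CAR-like cells, a gap of 1.83, and Hspa1a at 0.62 and -1.14, a gap of 1.76. With 1 library per condition, none of these differences between classes was tested. Dnajb1 in osteoblast-like cells rested on 143 and 27 UMIs. Without the Il6-high cells, CAR-like Hspa1b was at 0.32 and Hspa1a at -0.26, short of 1.5-fold. In the large CAR-like subcluster alone Hspa1b was at 0.01, while Hspa1a was at -1.15 (-1.46 to -0.85), past 1.5-fold. The 10 Veh and 16 Doxo CAR-like cells outside both main subclusters held 2 and 147 Hspa1a UMIs. In chondrocyte-like cells Hspa1a was also short of 1.5-fold with 20 dimensions (0.49) and when centred on all genes (0.53).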

How the results depend on the processing

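No paired analysis was possible because each condition had 1 library and the labels give no replicate numbers. Over 60 values of a gene in a class, 47 kept their sign and 42 their side of 1.5-fold in all alternatives run, and 663 of 690 alternative values had the sign of the main one. Hspa1b in CAR-like cells reversed, to 0.32 without the Il6-high subcluster and 0.01 in the large subcluster alone. The other 12 values that changed sign had not been past 1.5-fold. Among them were Hspe1 in CAR-like cells (-0.32, to 0.06 in the large subcluster) and, with the stricter cell filter, Hspa1a (-0.39 to 0.16) and Hspe1 (-0.22 to 0.09) in osteoblast-like cells.

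The summed difference in CAR-like cells (-1.18) was -0.52 without the Il6-high subcluster, -0.62 in the large and -0.69 in the Il6-high subcluster alone (the last 2 chosen after seeing the data). It was -1.14 with the stricter cell filter (at least 1000 genes, at most 5% mitochondrial UMIs), -1.08 thinned to 2000 UMIs, -1.09 with every cell at the same weight, -1.13 with 20 dimensions and -1.24 when centred on all genes. In bone and cartilage fibroblast-like cells (-0.24) it was -0.22 without the deepest 5% of cells, -0.17 thinned, -0.18 at the same weight, -0.17 at resolution 0.2 and -0.15 centred. In arteriolar and endosteal fibroblast-like cells (-0.23) it was -0.17 with the stricter filter, and in osteoblast-like cells (-0.74) -0.35 with that filter and -1.01 with 20 dimensions. In chondrocyte-like cells (0.46) it was 0.49 with the stricter filter, 0.42 without the deepest 5%, 0.52 thinned, 0.51 at the same weight, 0.42 with 20 dimensions and 0.37 centred. The cause of these shifts was not tested.

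Counts of members lower in Doxo also shifted. In CAR-like cells 9 became 3 without the Il6-high subcluster and 5 in the large one alone. In osteoblast-like cells 7 became 4 with the stricter filter or at least 100 UMIs per gene, which leaves out members there, and 3 at 2-fold. In bone and cartilage fibroblast-like cells 2 became 1 with the stricter filter, 20 dimensions, resolution 0.2, centring or 2-fold. In arteriolar and endosteal fibroblast-like cells 1 became 0 with the stricter filter, centring or 2-fold and 2 when thinned. At 2-fold, 2 became 1 in chondrocyte-like cells and 3 became 1 in endothelial-like cells. The osteoblast-like cells of Doxo held 981 member UMIs, the CAR-like 9767.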

Other observations

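The unnamed cells led by Clic5 and Rab37 (44 in Veh and 55 in Doxo) had member levels of their own. Summed over the 10 genes they were at 3580 CPM in Veh and 2732 CPM in Doxo, a log2 difference of -0.39 (-0.48 to -0.30). Hsph1 was at 75.9 and 32.0 CPM (-1.23, -2.08 to -0.46), Hspa1a at 452 and 227 CPM (-0.99, -1.29 to -0.70) and Hspa1b at 268 and 152 CPM (-0.82, -1.20 to -0.45), while Hspb1 (279 and 293 CPM) and Bag3 (102 and 123 CPM) had intervals that held 0. In the 10 Veh and 16 Doxo CAR-like cells outside both main subclusters, Hspa1a was at 12.5 CPM (1.52 to 45.3, on 2 UMIs) and 494 CPM (417 to 581, on 147 UMIs).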
